A study of Mus musculus with 10 samples.

Results

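The neuronal RNA-binding proteins described here were 10 genes of the ELAV-like, NOVA, RBFOX and CELF families, namely Elavl1, Elavl2, Elavl3, Elavl4, Nova1, Nova2, Rbfox1, Rbfox2, Rbfox3 and Celf4. They were chosen by name, and a probe belonged to a gene when the RefSeq accession printed with the probe was a transcript of that gene. Of the 41174 probes on the array, 15 matched 9 of the 10 genes, against 27190 probes matched to 18535 genes in all. No accession matched Nova2, so that gene was not analysed here. Elavl1 had 3 probes, Elavl2, Elavl4, Rbfox2 and Rbfox3 had 2 each, and the other members had 1 each.

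Expression was read on 10 dual dye arrays. Cy-5 carried RNA of a left hemibrain, from another male C57BL/6j mouse on each array, and Cy-3 carried a second RNA. Mice were housed singly from 3 weeks of age and kept for about 20 weeks, to an age of 5 months, on a fish oil diet rich in n-3 PUFA (FD) or on a standard lab diet (SD). The labels conflict on diet. By their diet entries all 10 hemibrains were FD and the Cy-3 RNA was pooled SD hemibrain, while the description of every sample reads as a control, and the labelling protocol and methods name a purchased reference for Cy-3 and mice of both diets. FD was therefore not compared with SD, and values are given as the lowest, the median and the highest of the 10 hemibrains.

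RNA-binding proteins of these families bind short motifs in transcripts and set how a neuron splices, localizes and degrades its mRNA. ELAV-like proteins bind AU-rich and U-rich elements, and Elavl2, Elavl3 and Elavl4 (HuB, HuC and HuD) are known from neurons, whereas Elavl1 (HuR) is present in most cell types. NOVA proteins bind YCAY motifs, RBFOX proteins bind GCAUG motifs, and CELF proteins bind GU-rich motifs. Rbfox3 is the NeuN antigen by which mature neurons are recognized in tissue sections, and Rbfox2 is expressed widely outside the brain.

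Each array lists a processed signal for either dye, and the log2 of Cy-5 over Cy-3 (log2 ratio) places the hemibrain above (positive) or below (negative) the reference RNA for the same probe. Reported ratios of a gene are those of its probe with the highest mean brightness, unless the probe is named. No spot was saturated. The share of probes well above background was 61.9% to 79.1% in Cy-3. For Cy-5 it was 68.2% to 76.9% on 9 arrays and 49.8% on the array of animal C10-434, which also had the lowest median background-subtracted Cy-5 signal (28.5, against 60.0 to 171). On every array, 13 of the 15 member probes cleared background well in Cy-5, and 12 did so in Cy-3. The dyes were not swapped, so a bias of a probe for a dye remains in its ratio. Precision is limited by how many arrays there are and by how far a signal clears background.

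The 10 arrays placed 7 of the 9 genes far above the reference. Rbfox1, Elavl4, Celf4, Rbfox3, Elavl3, Nova1 and Elavl2 stood at least 2-fold above it on every array, with median log2 ratios from 3.11 to 5.95. Rbfox2 lay close to the reference, and Elavl1 lay at least 2-fold below it on every array at its brightest probe. Among all 18533 genes with values on at least 5 arrays, 16.5% were at least 2-fold above and 15.6% at least 2-fold below on every array. The middle 50% of all genes had median log2 ratios between -0.86 and 0.88. By single probes, 10 of the 15 member probes were at least 2-fold above on every array, against 13% of all probes, and 2 were at least 2-fold below, against 14.1%. A higher ratio in a whole hemibrain can come from more cells that express a gene or from more RNA per cell, and these cannot be told apart.

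**Figure D1:**
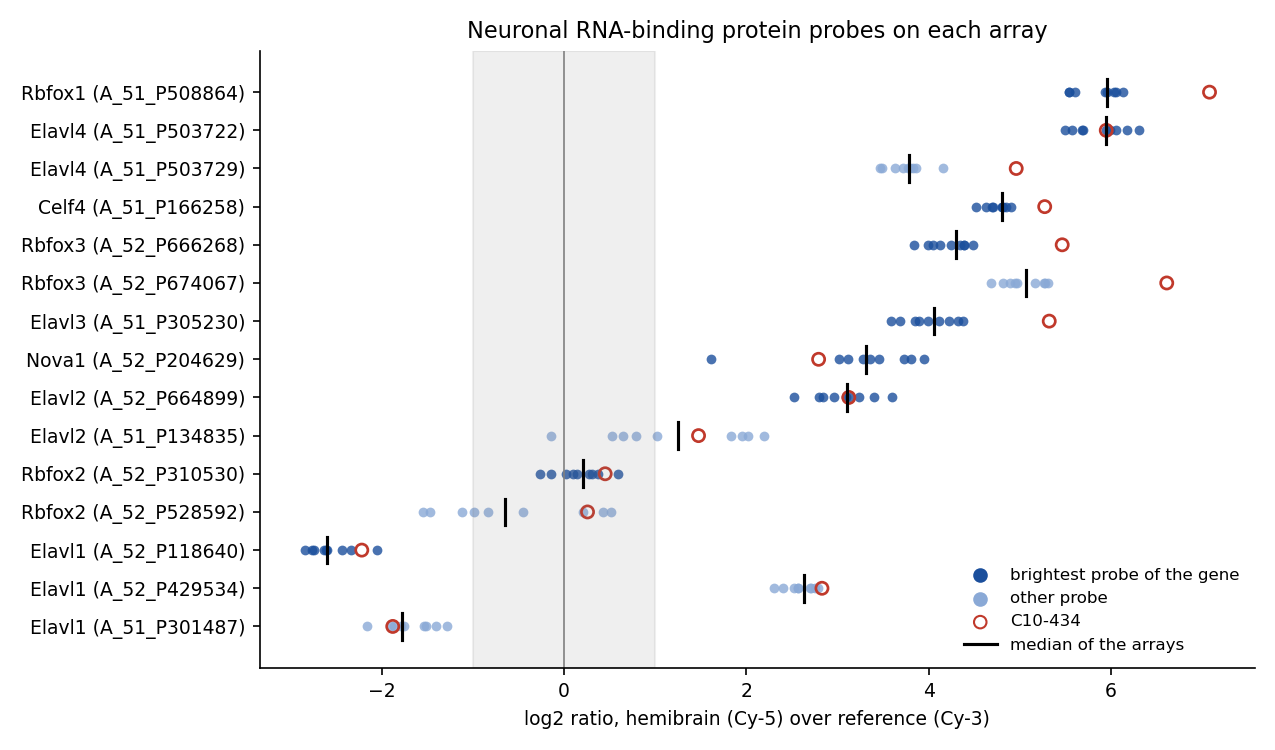
Log2 ratio of hemibrain over reference for the 15 member probes, with a point for each of the 10 arrays, an open circle for C10-434, a black line at the median and a grey band from -1 to 1. All probes of Rbfox1, Rbfox3, Elavl3, Elavl4 and Celf4 lie above 3, whereas the 3 probes of Elavl1 lie on both sides of 0.

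Elavl4, which encodes HuD, stabilizes growth-associated transcripts in neurons and shared the highest ratios with Rbfox1. Its log2 ratio at probe A_51_P503722 was lowest at 5.50, had a median of 5.95 and was highest at 6.31, a median ratio of 61.7-fold. The processed Cy-5 signal of that probe lay between 15387 and 50244, and the Cy-3 signal between 249 and 634, so the dyes did not overlap on any array. Its other probe, A_51_P503729, gave a lower ratio of 3.46 to 4.96 with a median of 3.78. The first probe stood above the second on 10 of 10 arrays, by a median log2 difference of 2.06 (exact sign-flip permutation test, two-sided, adjusted p = 0.0023 over the 7 pairs of probes of a gene). The size of the Elavl4 ratio thus differed between the probes, while both lay above the reference on every array.

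Elavl3, which encodes HuC and serves as an early marker of neurons, ran from 3.58 on C10-435 to 5.32 on C10-434, with a median of 4.06. The other 9 arrays lay at or below 4.37. Elavl2, which encodes HuB, had a median log2 ratio of 3.11 at probe A_52_P664899, with a lowest value of 2.52 on C10-416 and a highest value of 3.60 on C10-423. Its dimmer probe A_51_P134835 ran from -0.14 on C10-415 to 2.20 on C10-413, with a median of 1.25. That probe was well above background on 8 of the 10 arrays in either dye, and 1 array lay below the reference, so the size of the Elavl2 ratio rests on the brighter probe.

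The 3 probes of Elavl1, whose product HuR stabilizes AU-rich transcripts in many tissues, disagreed in direction on every array. At the brightest probe, A_52_P118640, the hemibrain lay below the reference, with log2 ratios from -2.84 to -2.05 and a median of -2.60 (6.08-fold lower). Probe A_51_P301487 also lay below, from -2.16 to -1.28 with a median of -1.77. Probe A_52_P429534 instead lay above the reference on 10 of 10 arrays, from 2.30 to 2.83 with a median of 2.63 (6.19-fold higher). All 3 probes carry the same accession, NM_010485, and all were well above background in both dyes on every array.

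The opposite directions were far larger than the spread over arrays. Between A_52_P429534 and A_52_P118640 the log2 ratio differed by 4.81 to 5.55 on the same array, with a median difference of 5.09 (exact sign-flip permutation test, adjusted p = 0.0023). At A_52_P429534 the Cy-5 signal was 5779 to 15316 and the Cy-3 signal 812 to 2654. At A_52_P118640 the Cy-5 signal was 1430 to 3130 and the Cy-3 signal 6656 to 16861. Across the 6 alternative settings run, the median of A_52_P429534 stayed between 2.40 and 2.82 and that of A_52_P118640 between -2.61 and -2.15. Of the 6589 genes with more than 1 tested probe, 58 (0.88%) had a probe at least 2-fold above and another at least 2-fold below on every array, and Elavl1 was among them. The part of the transcript that each probe covers was not analysed here.

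**Figure D2:**
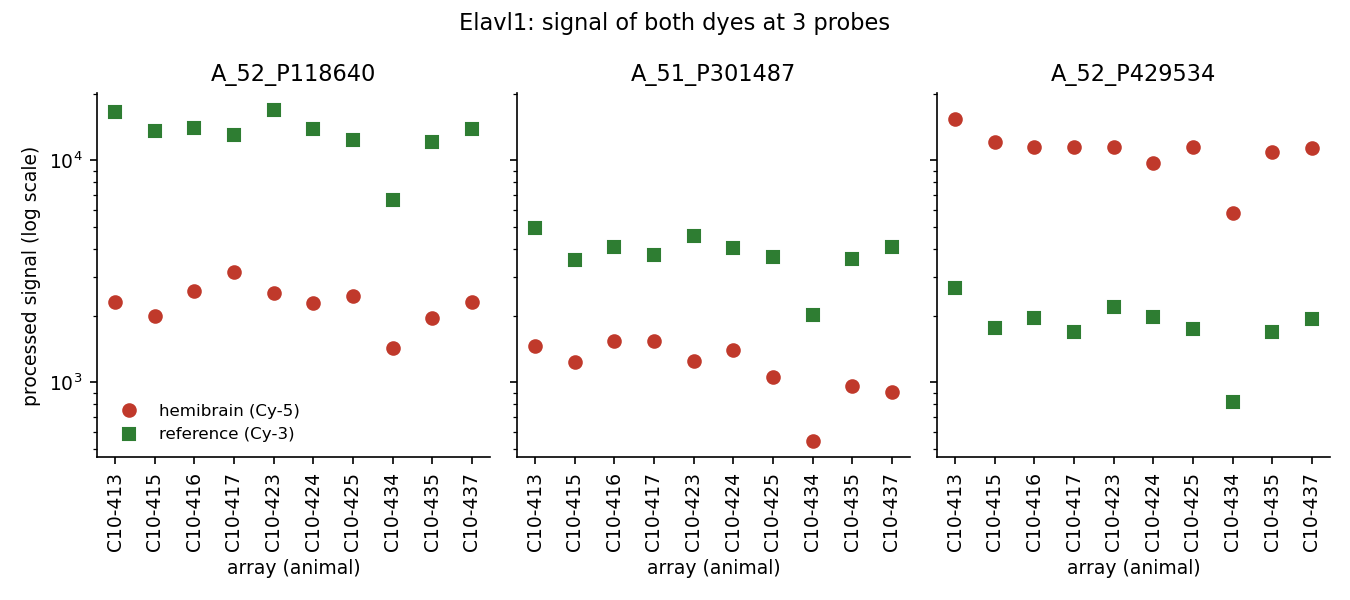
Processed signal on a log scale in Cy-5 (red circles, hemibrain) and Cy-3 (green squares, reference) at the 3 probes of Elavl1 on each of the 10 arrays. Cy-3 lies above Cy-5 on every array in the left and middle panels, and Cy-5 lies above Cy-3 on every array in the right panel.

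Among the RBFOX genes, whose products activate or repress exons according to where they bind beside them, Rbfox1 and Rbfox3 stood far above the reference and Rbfox2 did not. Rbfox1 had a median of 5.95, not separable from that of Elavl4, with a lowest log2 ratio of 5.54 on C10-413 and a highest of 7.08 on C10-434. It had a value on 9 arrays, because its spot on C10-424 carried an outlier flag. Without C10-434, its highest value was 6.14. Rbfox3 had a median log2 ratio of 4.30 at A_52_P666268, from 3.84 to 5.47, and of 5.07 at A_52_P674067, from 4.68 to 6.61. The Rbfox3 probes carry different accessions, NM_001039167 and NM_001024931. The highest value of either Rbfox3 probe was that of C10-434, and without it the ranges ended at 4.49 and 5.31. The second Rbfox3 probe lay above the first on 10 of 10 arrays, by a median log2 difference of 0.86 (exact sign-flip permutation test, adjusted p = 0.0023).

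On the 9 arrays with values for both, Rbfox1 exceeded Rbfox3 by a median log2 difference of 1.60 with an SD of 0.11, against SDs of 0.47 and 0.45 for the ratios themselves. C10-434 was the highest array for both genes, and without it the SDs of Rbfox1 and Rbfox3 were 0.25 and 0.22, against 0.12 for their difference.

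At its brightest probe, A_52_P310530, Rbfox2 ran from -0.27 on C10-413 to 0.59 on C10-415, with a median log2 ratio of 0.21 and 8 of 10 arrays above 0. Its other probe, A_52_P528592, which carries the accession NM_175387 in place of NM_053104, varied more, from -1.55 on C10-413 to 0.51 on C10-417 with a median of -0.64. The Cy-5 signal of this probe was 1792 on C10-415, 2089 on C10-417 and 2016 on C10-425, and between 564 and 985 on the other 7 arrays. In Cy-3 the same probe gave 815 on C10-434 and 1348 to 1833 elsewhere. By ratio, 4 of the 10 arrays lay above 0 at this probe. They were the 3 arrays with the highest Cy-5 signal (0.20, 0.51 and 0.42) and C10-434 (0.26), the array with the dimmest Cy-5. The remaining arrays ran from -1.55 to -0.45. The 3 arrays with the highest Cy-5 signal came from both slides with 4 arrays, and the brighter Rbfox2 probe did not set them apart from the rest. The probes differed on 8 of 10 arrays in the same direction (median log2 difference 0.79, exact sign-flip permutation test, adjusted p = 0.016).

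**Figure D3:**
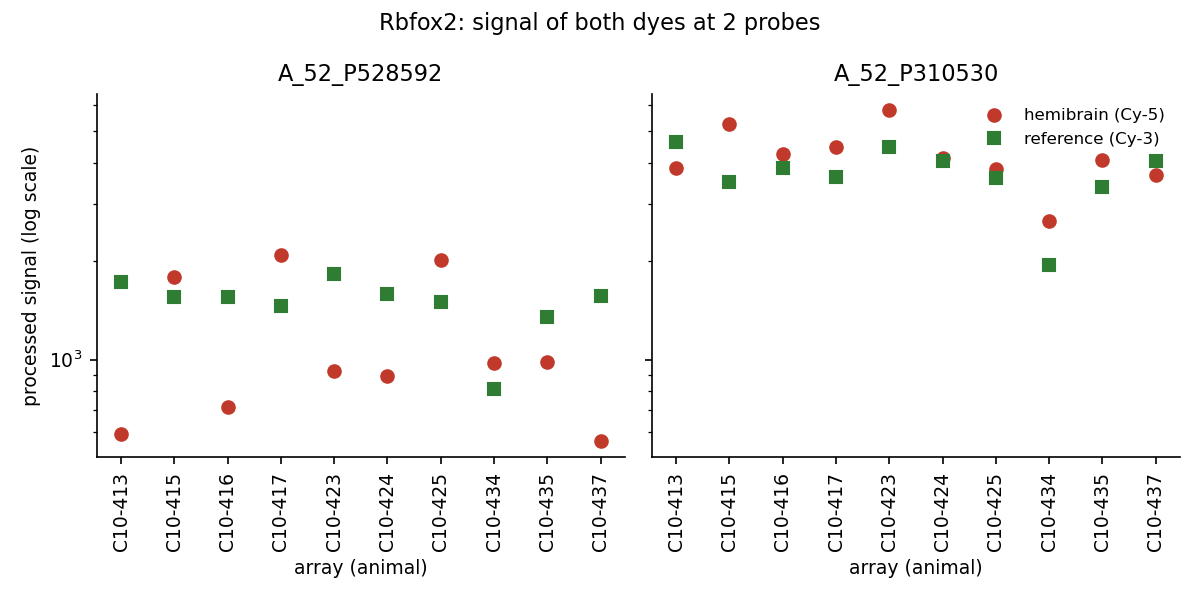
Processed signal on a log scale in Cy-5 (red circles, hemibrain) and Cy-3 (green squares, reference) at the 2 probes of Rbfox2 on each of the 10 arrays. At A_52_P528592 the Cy-5 signal of C10-415, C10-417 and C10-425 is 1792 or more, while the other 7 arrays reach 985 at most. Among these 7, the dim array C10-434 has Cy-5 above Cy-3 (975 against 815).

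Celf4, whose product regulates transcripts of excitatory neurons, had the smallest SD over arrays among the brightest probes of the 9 genes, 0.20. Its log2 ratio was 4.52 on C10-435, 4.81 at the median and 5.27 on C10-434, with Cy-5 signals of 80707 to 135786 and Cy-3 signals of 2086 to 4950. Without C10-434 its range was 0.38, against a median range of 0.73 over the 11368 genes well above background in both dyes on every array. Nova1, a splicing regulator of synaptic transcripts first known as a target of paraneoplastic antibodies, had the least certain ratio. It ran from 1.62 on C10-415 to 3.95 on C10-424, with a median of 3.32. Its Cy-3 signal of 23.7 to 113 was well above background on 6 arrays, and its Cy-5 signal on 9. On C10-415 the Cy-5 signal was 244, against 538 to 1247 on the other arrays except C10-434, where it was 164. With normexp background correction the median of Nova1 fell to 1.41, and with subtraction and a floor to 1.91.

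Start regions of the members differed in base composition, which the choice of genes did not use. RefSeq windows of 300 bases, from 250 before to 50 after a transcript start, were read for 8 of the 10 genes on assembly GRCm38.p6. Windows are shown for Elavl1, which lay below the reference at its brightest probe, and for Elavl3 and Rbfox3, which lay far above it at similar ratios. Each of these genes has a single window. Nova1 and Nova2 have a single window too, with 14 and 17 CG dinucleotides, and are not shown. All run 5′ to 3′ on the minus strand, and capitals mark CG dinucleotides.
Elavl1, chr8:4325051-4325350: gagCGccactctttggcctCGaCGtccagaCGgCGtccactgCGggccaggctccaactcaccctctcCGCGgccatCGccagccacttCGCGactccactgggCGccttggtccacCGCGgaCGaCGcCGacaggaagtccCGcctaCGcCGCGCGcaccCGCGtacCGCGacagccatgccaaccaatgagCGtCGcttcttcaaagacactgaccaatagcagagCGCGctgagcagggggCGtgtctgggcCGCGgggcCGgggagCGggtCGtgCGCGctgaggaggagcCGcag
Elavl3, chr9:22051974-22052273: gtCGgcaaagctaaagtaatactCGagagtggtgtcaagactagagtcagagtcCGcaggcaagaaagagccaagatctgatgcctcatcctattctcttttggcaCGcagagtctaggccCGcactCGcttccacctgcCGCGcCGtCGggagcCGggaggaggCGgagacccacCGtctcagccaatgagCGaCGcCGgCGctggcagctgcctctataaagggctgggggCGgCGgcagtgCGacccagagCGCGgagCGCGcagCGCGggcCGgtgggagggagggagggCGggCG
Rbfox3, chr11:118760992-118761291: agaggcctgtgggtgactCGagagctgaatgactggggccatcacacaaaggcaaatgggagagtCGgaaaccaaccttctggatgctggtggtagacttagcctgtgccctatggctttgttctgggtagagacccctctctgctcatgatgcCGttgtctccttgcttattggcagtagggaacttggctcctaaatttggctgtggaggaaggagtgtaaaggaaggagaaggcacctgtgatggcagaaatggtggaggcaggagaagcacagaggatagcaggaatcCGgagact

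The Elavl1 window holds 39 CG dinucleotides, more than 95.6% of the 32851 windows of all genes, whose median is 7. That of Elavl3 holds 29 and that of Rbfox3 holds 4, more than 87.1% and 31.4% of all windows, although the ratios of these genes were close. The windows of Elavl1 and Elavl3 contain the 5′ end of the gene. That of Rbfox3 lies inside the gene, whose 5′ end is at 118911597, and the bases at that end were not read. Elavl3 also has the letters TATAAA once and GGGCGG at 2 places, counting both strands, and these motifs were found in 13.6% and 35.7% of all windows. Neither motif was found in the windows of Elavl1 or Rbfox3. The 2 windows of Rbfox1 hold 3 and 7 CG dinucleotides. These counts are descriptions of the sequence and were not set against the ratios by any test.

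The order of the 9 genes by median log2 ratio was Rbfox1, Elavl4, Celf4, Rbfox3, Elavl3, Nova1, Elavl2, Rbfox2 and Elavl1. All 36 pairs were compared within arrays by an exact two-sided sign-flip permutation test, whose smallest p with 10 arrays is 0.00195, with Benjamini-Hochberg adjustment over the pairs. In 34 of the 36 pairs the ratios differed at an adjusted p under 0.05. By the same test all 7 of the 7 pairs of probes of a single gene differed as well. A called pair therefore shows that 2 probes differed in ratio, and does not separate a difference of genes from one of probes. Rbfox1 and Elavl4 were not separated, with differences from -0.70 to 1.13 and Rbfox1 higher on 6 of 9 arrays (exact adjusted p = 0.68). Elavl4 had the higher median of this pair in 4 of the 8 alternative settings, among them loess and the arrays without C10-434. With the mean over probes it lay well below Rbfox1, at 4.91 against 5.95. The order thus depends on the probe chosen, and the second Rbfox3 probe, with a median of 5.07, lay above Celf4 at 4.81. Nova1 and Elavl2 were not separated either, with differences from -1.18 to 0.98 and Nova1 higher on 7 of 10 arrays (exact adjusted p = 0.49). Nova1 was dim in Cy-3 on 4 arrays, and its median fell below that of Elavl2 with normexp (1.41 against 2.99) and with the floor (1.91 against 3.13). Rbfox3 exceeded its neighbour Elavl3 by a median of only 0.11, on 9 of 10 arrays (exact adjusted p = 0.0064).

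Within families the differences between brightest probes were wide. Elavl2, Elavl3 and Elavl4 exceeded the brightest probe of Elavl1 by median log2 differences of 5.57, 6.59 and 8.28, each on 10 of 10 arrays (exact adjusted p = 0.0031). Set against the third probe of Elavl1, whose median was 2.63, the medians of the brightest probes of these genes still lay higher, by an amount that was not tested. For Elavl2 this held at the brighter probe alone (median 3.11), since its dimmer probe had a median of 1.25. On C10-416 the brighter Elavl2 probe lay below that Elavl1 probe (2.52 against 2.57). Rbfox1 exceeded Rbfox2 by 5.80 on 9 of 9 arrays (exact adjusted p = 0.0045), and Rbfox3 exceeded Rbfox2 by 4.14 on 10 of 10 (exact adjusted p = 0.0031).

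The dim array C10-434 set the upper end of several members. Its ratio was the highest of all arrays at 7 of the 15 member probes and the lowest at 0. Against the median of the other arrays, the ratio on C10-434 was higher by 1.64 and 1.22 at the probes of Rbfox3, by 1.33 for Elavl3, by 1.19 at the dimmer probe of Elavl4, by 1.14 for Rbfox1 and by 1.09 at the Rbfox2 probe A_52_P528592. It was higher by only 0.0021 for Elavl4 and by 0.031 for Elavl2 at their brightest probes. At the Elavl1 probe A_51_P301487 the deviation was -0.12, with both dyes well above background. The dimmer Elavl4 probe was not well above background in Cy-3 on C10-434, so its deviation is uncertain. Nova1 deviated by -0.56 there, which is uncertain as well, since it was not well above background in either dye. At the Rbfox2 probe the log2 Cy-5 signal was 0.079 above the other arrays and the Cy-3 signal -0.93 from them. For Rbfox1 the Cy-3 signal was 244 there against a median of 997 elsewhere, and the Cy-5 signal was 33014 against 60344. Among 780 other genes with a ratio between 3 and 7 and signals well above background, the median deviation of C10-434 was 0.41, with quartiles of 0.069 and 0.88. The median of the Rbfox2 probe A_52_P528592 (-0.64) falls outside that band. Among 5890 genes with a ratio between -1 and 1, the median deviation was -0.012, with quartiles of -0.22 and 0.19. Without C10-434 the same 7 genes were at least 2-fold above on every array, against 17.6% of all genes, and 34 of 36 pairs differed.

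**Figure D4:**
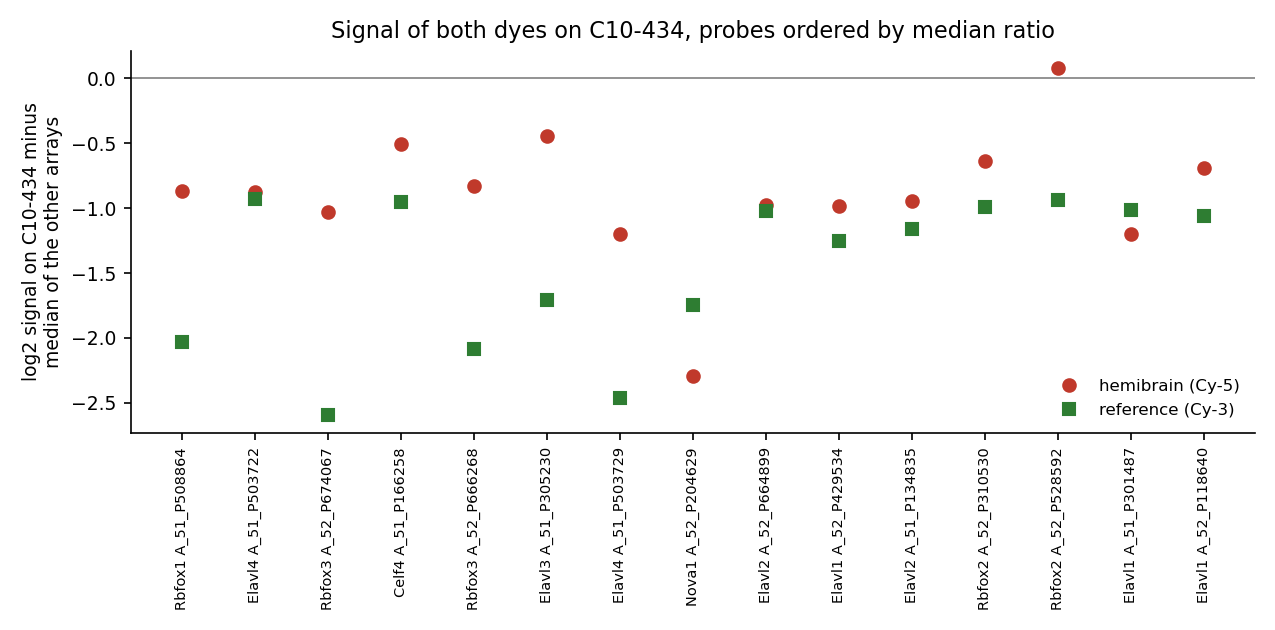
Log2 processed signal on C10-434 minus the median of the other 9 arrays, in Cy-5 (red circles, hemibrain) and Cy-3 (green squares, reference), for the 15 member probes ordered by median ratio. The Cy-3 signal lies about 2 or more below the other arrays for Rbfox1, both probes of Rbfox3 and the dimmer probe of Elavl4. At that Elavl4 probe the Cy-3 signal of C10-434 is not well above background.

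The arrays came from 4 slides, and the 2 slides with 4 arrays each were compared with limma over 41042 probes. None of the 15 member probes differed at an adjusted p under 0.05, and 0 of them had an unadjusted p under 0.05. Over all probes, 31 (0.0755%) passed the adjusted and 9.92% the unadjusted threshold. The largest slide difference at a member's brightest probe was that of Nova1, at 0.48 (SE 0.43, limma adjusted p = 0.87), from a mean log2 ratio of 2.87 to 3.34. Mice on these slides differ as well, so slide and animal cannot be told apart, and the slides with 1 array each could not enter.

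Related RNA-binding proteins gave mixed ratios. Of 13 other CELF, PTB, muscleblind and SRRM splicing regulators, 5 were at least 2-fold above the reference on every array (38.5%, against 16.5% of all genes) and 4 at least 2-fold below (against 15.6%), with a median over the list of 0.093. Celf3, Celf5 and Celf6, which are CELF genes of the nervous system, stood at medians of 7.31, 4.38 and 3.99, whereas Celf1 and Celf2 were at -1.16 and 0.093. Srrm4 (nSR100), the regulator of neuronal microexons, stood at 3.99 and Srrm3 at 2.03. Ptbp1, a repressor of neuronal exons in non-neuronal cells, lay below the reference at -2.96, as did Ptbp3 at -3.02 and Mbnl1 at -2.31, whereas Ptbp2, its neuronal paralog, had a median of 1.21 and ran from 0.27 to 1.66. Mbnl3 was not well above background in Cy-5 on any array, and the reference, as a mean over the arrays, was at least 2.82-fold higher.

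Among 15 STAR, Musashi, FMRP, Pumilio and CPEB proteins, 5 were at least 2-fold above on every array (33.3%, against 16.5% of all genes) and 1 at least 2-fold below (against 15.6%), with a list median of 0.87. Khdrbs3 (SLM2), which splices neurexin transcripts, led at 6.66, followed by Qk, the glial splicing and mRNA stability factor, at 3.28 and Khdrbs2 at 2.92. Cpeb3 at 2.04 and Cpeb1 at 1.88 completed the 5. Fxr1 was lowest, at -1.82. Of 20 general SR and hnRNP splicing factors, 0 were at least 2-fold above and 3 (Srsf2, Srsf7 and Srsf10) at least 2-fold below on every array, with a list median of -0.56. Of all genes, 16.5% were above and 15.6% below, so the share of these factors below the reference was near that of all genes. Their medians lay between -1.83 for Srsf10 and 1.03 for Hnrnpk, a span that contains Rbfox2.

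Cell markers described what the dyes measured. Of 14 neuron markers, 13 were at least 2-fold above the reference on every array, against 16.5% of all genes, with a list median of 6.20. Syn1 was the exception, at -0.27. Of the 8 astrocyte and 9 oligodendrocyte markers, 7 and 9 were at least 2-fold above, with list medians of 5.46 and 5.22, while all 9 proliferation markers were at least 2-fold below, against 15.6% of all genes, with a list median of -5.57. The oligodendrocyte gene Mog was not well above background in Cy-3 on any array, so its level in the hemibrains, as a mean over the arrays, was at least 29.5-fold higher. These values go against the label of the Cy-3 channel as pooled hemibrain. The list median of the neuron markers on C10-434 was 7.45, against 5.63 to 6.62 on the other arrays, and its part in the members' values there was not tested. For Snap25, Map2, Nefm, Gap43, Gad1 and Gad2 the Cy-3 signal cleared background well on only 9 arrays each. The array that each of them missed was not identified, and 7.45 equals the highest ratio of Gap43. The list median on C10-434 is therefore uncertain.

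**Figure D5:**
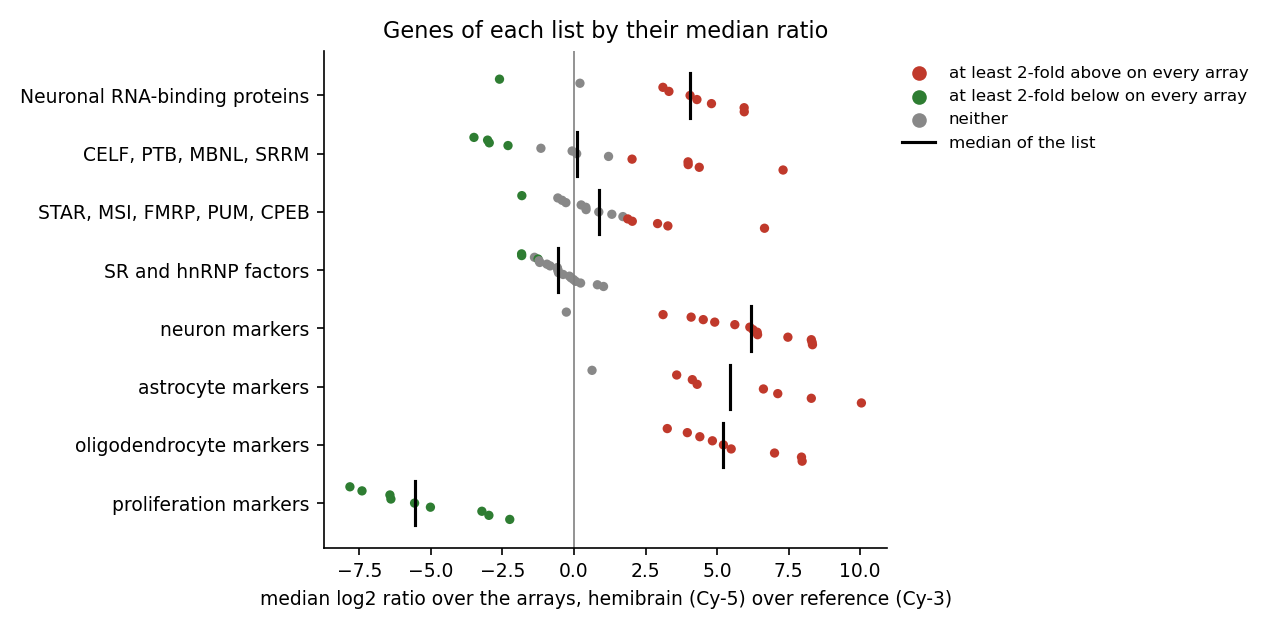
Median log2 ratio of hemibrain (Cy-5) to reference (Cy-3) for each gene of 8 lists, coloured by whether the gene was at least 2-fold above (red) or below (green) on every array or neither (grey), with a black line at the median of the list. Most members lie among the neuron and glial markers, and Rbfox2 lies at the values of the SR and hnRNP factors.

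The genes whose log2 ratios lay closest to those of a member were found by the root-mean-square difference over the 10 arrays. The search covered 10523 genes well above background in both dyes and measured on every array. Ratios were not centred, so a near gene is one at a similar level of ratio, and a shared course over the arrays was not tested. Nearest to Rbfox1, by its 9 values, were the sodium channel Scn2a (0.13) and the potassium channel subunit Kcnf1 (0.15). Celf4 was nearest to Rab3a and Kalrn (0.18 each), a synaptic vesicle GTPase and an exchange factor of dendritic spines. Rbfox3 was nearest to Dtx1 (0.11) and Npy (0.13), and Elavl3 to Snph (0.12), a mitochondrial anchor of axons, and Usp29 (0.18). Elavl4 had more distant neighbours, Dzank1 (0.23) and the neuronal chloride transporter Slc12a5 (0.28). The nearest genes of Rbfox2 were Hs6st1 and Preb, those of Elavl2 were Smarca1 and Plxnc1, and those of the brightest Elavl1 probe were Oasl2 and Irf1.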

How the data were processed

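Per the file headers, the authors scanned the arrays and extracted spots with the Feature Extraction software, version 10.10.1.1, and the deposited processed signals are intensities after its background subtraction and dye normalization. The deposited log10 ratios of the spots were not used. The deposited value table holds log2 values, which lay within 0.01 of the log2 of Cy-5 over Cy-3 from the processed signals for 100% of the probes on each array, so its scale and direction are settled, and its column medians lay between -0.054 and 0.099. The deposited flags for background, saturation and outliers (scored 0 or 1) were taken as given. The array position of C10-437 differs between its label and its file.

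Control spots and spots with an outlier flag were left out, and spots of a probe were averaged. A probe was well above background when at least 0.5 of its spots were flagged so. Probes were named through RefSeq transcripts of GRCm38.p6, used for names alone (66.0% matched). A count of 2-fold on every array needed values on at least 5 arrays. Bounds ("at least N-fold") used the lowest signal well above background in the dim channel, after loess and Aquantile scaling, and are means of log2 signals over the arrays. Fits used limma 3.58.1 under R 4.3.3, and all else Python 3.11.15. The slide comparison was tested on simulated data of 40299 probes, where it found 59.5% of 200 probes shifted by a log2 of 1.5 and called 2 that were not shifted. The members and lists were chosen with earlier results of these data known. All members and their probes are named, with the lowest and highest gene of a list, genes needed to read a count of 5 or fewer, and the 2 nearest genes of each member that was well above background. Mog was named after its values were seen. Pairs with Nova2 had been planned and could not be tested, which left 36. Alternatives were loess (span 0.3), median centring, normexp with an offset of 50 on median signals, the deposited table, values well above background alone, the mean over probes, C10-434 left out, a fold of 1.5, and all 10 arrays or 1 array fewer in the slide fit. Background subtraction with a floor of 0.5, and the gap of Nova1 and the spread of Rbfox1 and Rbfox3 without C10-434, were added after the data were examined.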

Additional observations from a re-analysis of the deposited data

Results flagged for a closer look

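Dixon's gap test for 10 arrays (critical value 0.466) was applied to the log2 ratios of the 15 member probes. It singled out 1 array in 7 of them, where about 1 in 20, or 0.75 of the 15, would be singled out by chance. Probes that share an array are not independent.

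On C10-434 the log2 ratio stood apart at 6 probes. It was 7.08 for Rbfox1 (next highest 6.14), 6.61 and 5.47 for the Rbfox3 probes A_52_P674067 and A_52_P666268 (next highest 5.31 and 4.49), 5.32 for Elavl3 (next highest 4.37), 4.96 for the Elavl4 probe A_51_P503729 (next highest 4.16) and 5.27 for Celf4 (next highest 4.90). The Elavl4 probe was not well above background in Cy-3 on that array, and the other 5 were well above background in both dyes. On C10-415 the log2 ratio of Nova1 was 1.62, against 2.79 on the next lowest array and a median of 3.32. The next lowest array was C10-434, where Nova1 was not well above background in either dye. Without that array the next lowest value was 3.01, and C10-415 still stood apart (gap of 0.60 of the range, critical value 0.493 for 9 arrays). Its signals on C10-415 were 244 in Cy-5 and 79.6 in Cy-3, both well above background. The cause of either pattern was not tested.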

How the results depend on the processing

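Under the alternatives run, 6 or 7 of the 9 genes were at least 2-fold above the reference on every array and 33 or 34 of 36 pairs differed. With normexp (where 6.01% of all genes were above) and with the floor (15%), Nova1 was the gene lost, its lowest log2 ratio being 0.089 and 0.63. The count below the reference, 1 gene (Elavl1), was 0 with the mean over all probes, since the probes of Elavl1 point in opposite directions and their mean is -0.56. Of 72 median ratios of members under 8 alternatives, 61 moved by less than the SD over arrays, 11 moved further and 0 reversed a call. With normexp the other CELF, PTB, muscleblind and SRRM list had 3 genes above and 2 below, and the STAR, Musashi, FMRP, Pumilio and CPEB list 2 above. With the mean over probes that last list had 3 above and the SR and hnRNP list 1 below. The cause was not tested, apart from the averaging of Elavl1. The typical shift of a gene from the main setting was 0.18 with loess and 0.13 with the floor. The median of all genes was 0.062 in the main setting, 0.12 with loess and 0.029 with the floor. Between slides, 0 member probes passed in each alternative and with each array left out (range 0 to 0), with 1 at an unadjusted p under 0.05 under the floor and 1 without C10-423, while the count over all probes tested went from 31 to 0 with normexp and with the floor, and to between 0 and 18 with 1 array fewer. Dim Cy-3 signal limits Nova1 and the second probe of Elavl2.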
